A study of Mus musculus with 12 samples.

Results

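The gluconeogenic genes of the liver were followed in RNA-seq libraries from 12 mice. They are *G6pc*, *Slc37a4*, *Fbp1*, *Pck1*, *Pck2*, *Pcx* and *Ppargc1a*, chosen by gene symbol for their place in the pathway, and are 7 of the 16346 genes in the table of normalized counts. All 7 were measured and were among the 12366 genes that passed a minimum mean normalized count of 10 and were tested. The study asked how the kinase module of the Mediator complex, which is tethered to the core complex by MED13, acts on the liver genes that respond to feeding and to fructose. Control mice carried floxed *Med13* alleles (Med13 fl/fl) and MED13-LKO mice carried the same alleles with *Alb*-Cre, which is driven by the albumin promoter of hepatocytes, so that other liver cells such as Kupffer and endothelial cells keep the gene. All mice were C57BL6J and 12 weeks old. They were either fasted overnight for 16 h, or refed for 4 h with normal chow and drinking water that held 30% sucrose or 30% fructose. Each of the 6 groups of genotype and diet held 2 mice, so that there were 6 mice of each genotype, 4 fasted and 8 fed.

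Gluconeogenesis makes glucose from lactate, glycerol and amino acids, and in the liver it is the pathway that holds up blood glucose once glycogen runs low during a fast. It runs glycolysis backwards except at the irreversible steps, which have their own enzymes. Pyruvate carboxylase and the phosphoenolpyruvate carboxykinases bypass pyruvate kinase, fructose-1,6-bisphosphatase bypasses phosphofructokinase, and glucose-6-phosphatase releases free glucose at the end. Glucagon and glucocorticoids raise the transcription of the rate-setting genes in the fasted state, with the coactivator PGC-1α and the factors CREB and FOXO1 among the mediators, and insulin lowers it after a meal.

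Summed normalized counts ranged from 21060000 to 24150000 over the control libraries and from 17310000 to 18740000 over the libraries labelled MED13-LKO. The reads counted on genes, estimated from the smallest step between low values, ranged from 16090000 to 24230000 per library. *Med13* RNA in the libraries labelled MED13-LKO differed from controls by a log2 fold change of 0.22 ± 0.11 SE over the 3 diets and was not called lower (adjusted p = 0.201 from limma). The table does not show which exons the reads came from, so this neither checks nor refutes the deletion, and the group is named by its label throughout. By immunoblot of liver nuclear proteins, the paper reports that MED13 and MED12 were nearly absent in MED13-LKO mice. Protein was not examined here. *Nnt*, a mitochondrial transhydrogenase gene that carries a deletion in C57BL/6J mice, read 529 to 1004 in control libraries and 2617 to 3687 in libraries labelled MED13-LKO, although 47.8% of its 31-base subsequences occur in other genes. A difference in genetic background and the deletion of *Med13* cannot be told apart in this design, nor can *Alb*-Cre itself. The summed level of 5 hepatocyte markers lay between 2174840 and 2858410 in control libraries and between 1629030 and 1977210 in libraries labelled MED13-LKO, and all 5 markers were called lower there. Kupffer cell markers summed to between 2972 and 4147 and to between 4031 and 5360 respectively, and 2 of the 6 were called higher. Over the diets 3 of 5 sinusoidal endothelial markers were called higher in the libraries labelled MED13-LKO, and 4 of 6 periportal, 3 of 6 pericentral, 2 of 3 erythroid and 1 of 5 stellate cell markers lower. With feeding 5 of 6 periportal markers (*Sds* among them), 2 of 5 hepatocyte, 2 of 5 sinusoidal endothelial and 2 of 3 erythroid markers were called lower, and 1 periportal marker higher, while 1 stellate cell marker was called in each direction. Over all tested genes 12.1% were called higher and 13.2% lower between genotypes, and 10.7% higher and 11.0% lower with feeding. Of the genes averaging 5000 normalized counts or more, 61.3% were called lower in the libraries labelled MED13-LKO. Fewer hepatocytes and less RNA per hepatocyte cannot be told apart in bulk liver, and the part of either in the values below was not tested. A gene was called where its adjusted p from limma, fitted over all tested genes on log2(normalized count + 1), was under 0.05. The added 1 shrinks the fold changes of weakly expressed genes. Values that a library or a mouse is said to read are normalized counts, and ± gives standard errors.

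Levels of the 7 genes are compared here per kb, as the mean normalized count divided by the length of the longest coding transcript, and in fasted controls they spanned several orders of magnitude. *Pck1* stood highest at 35260 per kb, followed by *Fbp1* at 10731, *G6pc* at 3788, *Slc37a4* at 3084, *Pcx* at 273, *Ppargc1a* at 65.9 and *Pck2* at 6.79. Among neighbours in this order only *G6pc* and *Slc37a4* came close, with normalized counts in single fasted control mice of 7865 and 10424 for the former and 7435 and 7022 for the latter. The order changed with diet and genotype. With sucrose in controls *Pck1* stood at 2660 per kb and *G6pc* at 1295, both below *Slc37a4* at 3225 and *Fbp1* at 12519. With fructose in libraries labelled MED13-LKO *Pck1* at 4439 stood below *Fbp1* at 7035. There *G6pc* at 3696 stayed above *Slc37a4* at 2116, as in fasted controls. The step from transcripts to genes is not given in the sources used here, so levels of genes with many annotated transcripts are less certain than the differences within a gene. The values of *Pcx* and *Pck2* are low for mouse liver, in which *Pcx* is known as a well expressed gene, and whether they cover all transcripts of these genes was not tested.

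**Figure D1:**
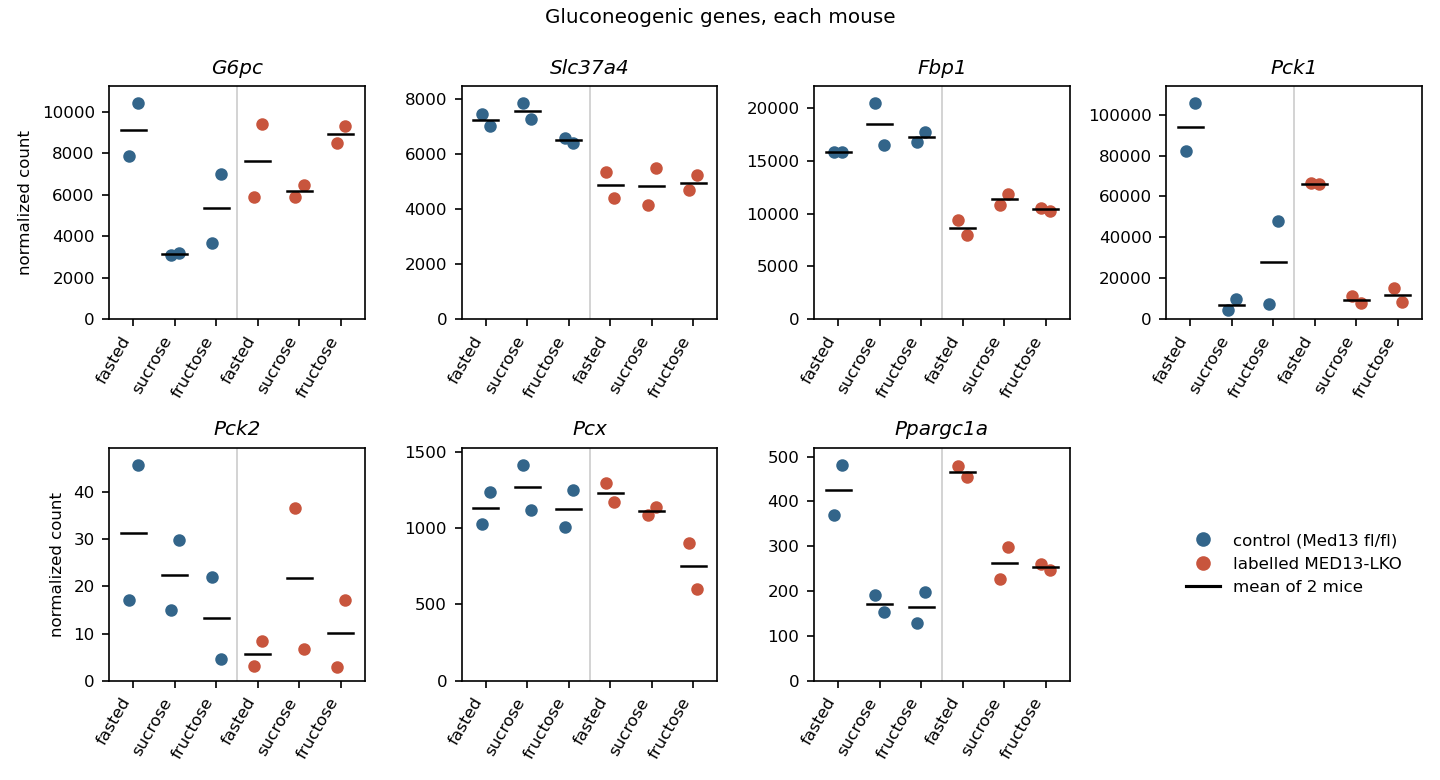
Normalized counts (y axes, linear from 0, a scale of its own for each gene) of the 7 genes in each of the 6 groups (x axes), where points are single mice and bars are means of 2. *Pck1* and *Ppargc1a* were lower in all 8 fed mice than in any of the 4 fasted mice, as were 4.79% of tested genes. *Slc37a4* and *Fbp1* were lower in all 6 libraries labelled MED13-LKO than in any control library, as were 4.93% of tested genes.

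*G6pc* (ENSMUSG00000078650) encodes the glucose-6-phosphatase catalytic subunit, the last enzyme on the way from gluconeogenesis or glycogen to free glucose. It lies on the plus strand at chr11:101367561-101377903 of GRCm38 with 1 annotated transcript. Normalized counts were 7865 and 10424 in fasted controls, 3077 and 3178 in sucrose-fed controls, and 3665 and 7030 in fructose-fed controls. Fasted mice labelled MED13-LKO read 5887 and 9423, sucrose-fed ones 5895 and 6498, and fructose-fed ones 8529 and 9317. All 4 fed controls thus lay below both fasted controls, whereas all 4 fed libraries labelled MED13-LKO lay within the range of the fasted ones of their genotype. Both fructose-fed libraries labelled MED13-LKO exceeded every fed control, and both sucrose-fed ones exceeded all fed controls but the second fructose-fed mouse. The fasted range of that genotype rests on 2 mice, and the lowest fed value, 5895, lay just above its lower end of 5887. How many of all tested genes order the libraries in these ways was not counted.

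The 250 bases upstream of the RefSeq starts of *G6pc* and *Pck1*, the genes of the pathway best known for transcriptional control by fasting and feeding, are shown because the feeding results below turn on these genes. Both come from the plus strand of GRCm38.p6, at chr11:101367466-101367715 for *G6pc* and chr2:173152823-173153072 for *Pck1*. Capitals mark matches, on either strand, to the FOXO core TGTTTNC, its insulin-response form TGTTTTG, the core of the cAMP response element TGACG, the E-box CACGTG and the TATA box TATAAA.
G6pc: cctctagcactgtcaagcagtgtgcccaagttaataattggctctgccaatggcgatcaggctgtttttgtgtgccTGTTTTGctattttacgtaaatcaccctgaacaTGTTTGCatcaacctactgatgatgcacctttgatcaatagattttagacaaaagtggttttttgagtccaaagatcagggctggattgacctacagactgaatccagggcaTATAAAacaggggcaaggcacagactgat
Pck1: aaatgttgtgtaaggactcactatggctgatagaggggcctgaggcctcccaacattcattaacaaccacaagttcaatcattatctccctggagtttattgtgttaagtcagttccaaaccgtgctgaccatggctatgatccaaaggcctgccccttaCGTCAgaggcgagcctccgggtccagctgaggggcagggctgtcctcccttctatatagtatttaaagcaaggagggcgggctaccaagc
Counted from the RefSeq start, the *G6pc* window held TGTTTTG at -174 to -168, TGTTTNC at -141 to -135 and TATAAA at -29 to -24, and no match to TGACG or CACGTG. In the *Pck1* window the only match was TGACG on the minus strand at -90 to -86. The matched forms did not overlap one another. Over 32851 promoter windows of the same length, TGTTTNC was present in 17.8%, TGTTTTG in 5.56%, TGACG in 17.8%, CACGTG in 6.02% and TATAAA in 12.4%. Each matched form thus occurs in many other windows, TGTTTTG in the fewest, and a match describes the letters alone. The GENCODE start of *G6pc* lies 155 bases upstream of the RefSeq start, and that of *Pck1* 25 bases upstream.

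With sucrose, *G6pc* in control mice fell to 34.2% of the fasted mean (log2 fold change -1.53 ± 0.29 SE, adjusted p = 0.0107 from limma), in a comparison where 8.57% of all tested genes were called. With fructose the control mean was 58.5% of the fasted one, which was not called (-0.83 ± 0.29, adjusted p = 0.119), against 5.60% of genes called. Without the second fructose-fed control mouse, the higher of that pair, the change was -1.30 and called (adjusted p = 0.0132). The sucrose call was lost without the second fasted control mouse or either sucrose-fed control mouse, with adjusted p between 0.0527 and 0.0913.

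Neither sugar gave a called change of *G6pc* in the libraries labelled MED13-LKO. The response was -0.27 with sucrose (95% interval -0.90 to 0.37, adjusted p = 0.654) and 0.26 with fructose (-0.38 to 0.89, adjusted p = 0.645), where 5.71% and 6.53% of genes were called. The difference between the genotypes' responses was 1.27 for sucrose (0.37 to 2.16, unadjusted p = 0.0104) and 1.09 for fructose (0.20 to 1.99, unadjusted p = 0.0217). After adjustment over all genes neither interaction passed (adjusted p = 0.419 and 0.456 from limma), in tests that called 0.146% and 0.0243% of genes. The feeding response of *G6pc* was therefore not shown to differ between genotypes across the whole table, although both intervals lay above 0.

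Between genotypes at the same diet, *G6pc* in the libraries labelled MED13-LKO was 83.7% of the control mean when fasted, 198% with sucrose and 167% with fructose. None of the differences was called (adjusted p = 0.581, 0.0748 and 0.119), where 8.98%, 6.03% and 7.69% of genes were called respectively. A fit of the sucrose-fed groups alone called the sucrose difference (adjusted p = 0.00299), and leaving out the second fructose-fed control mouse gave a called fructose difference of 1.28 (adjusted p = 0.0127). The average of the 3 genotype differences was 0.51 ± 0.16 and called (adjusted p = 0.0477), but the call held in only 2 of the 12 fits that left out 1 library, those without the first fasted library labelled MED13-LKO or the second fructose-fed control mouse. The other 10 gave adjusted p between 0.0509 and 0.119, and a fit with no filter on low values gave 0.0526. Over both sugars and genotypes *G6pc* fell with feeding by 0.59 (adjusted p = 0.036), and this call was lost in 8 of the 12 such fits (adjusted p between 0.0575 and 0.157). They were those without the second fasted mouse of either genotype, either sucrose-fed control, or any of the 4 fed libraries labelled MED13-LKO.

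*Slc37a4* (ENSMUSG00000032114, chr9:44396852-44402968, plus strand, 7 transcripts) encodes the transporter that carries glucose-6-phosphate into the endoplasmic reticulum, where the catalytic subunit works. Fasted controls read 7435 and 7022, sucrose-fed controls 7838 and 7278, and fructose-fed controls 6565 and 6409. Libraries labelled MED13-LKO read 5345 and 4399 from fasted, 4138 and 5506 from sucrose-fed and 4705 and 5216 from fructose-fed mice. The highest library labelled MED13-LKO was below the lowest control library, a separation downward of 6 against 6 that 4.93% of tested genes showed. The transporter was called lower over the 3 diets (-0.54 ± 0.08, adjusted p = 0.000879), as 13.2% of genes were, and stayed called in all 12 fits without 1 library. Within diets it was called when fasted (-0.58, adjusted p = 0.0284) and with sucrose (-0.66, adjusted p = 0.0198), and was -0.39 with fructose (adjusted p = 0.115). Each of those within-diet calls was lost in 3 of its 4 fits without 1 library. They were kept only without the first fasted and the second sucrose-fed library labelled MED13-LKO, and adjusted p reached 0.175 and 0.143 without the other library of the respective group. *Slc37a4* was not called with feeding, with a log2 difference of -0.02 over both sugars and genotypes (95% interval -0.20 to 0.16, adjusted p = 0.882), a value whose sign turned under rescaling to equal 75th percentiles.

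The proportion of the catalytic subunit to its transporter differed between libraries. The ratio of *G6pc* to *Slc37a4* normalized counts was 1.06 and 1.48 in fasted controls, and between 0.393 and 1.10 in the 4 fed controls. In the libraries labelled MED13-LKO it was 1.10 and 2.14 for the fasted mice and between 1.18 and 1.81 for the 4 fed ones. The fed genotypes did not overlap in this ratio, which was computed after the values of both genes had been seen and was not tested.

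*Fbp1* (ENSMUSG00000069805, chr13:62864753-62888282, minus strand, 3 transcripts), which encodes the liver form of fructose-1,6-bisphosphatase, separated the genotypes at each of the 3 diets. It read 15886 and 15857 in fasted controls, 20479 and 16552 with sucrose, and 16789 and 17748 with fructose. Libraries labelled MED13-LKO read 9443 and 7943 from fasted, 10866 and 11906 from sucrose-fed and 10569 and 10240 from fructose-fed mice. Not one of these 6 reached the lowest control library, a separation downward of 6 against 6 that 4.93% of tested genes showed. Their means were 54.8%, 61.5% and 60.3% of the control means when fasted, with sucrose and with fructose. *Fbp1* was the 1 gene of the 7 called lower at every diet (-0.87, -0.69 and -0.73, adjusted p = 0.00171, 0.00779 and 0.00487 from limma). In those comparisons 8.98%, 6.03% and 7.69% of tested genes were called in either direction. Over the diets the difference was -0.77 ± 0.07 (adjusted p = 3.7e-05 from limma), where 13.2% of genes were called lower. The call over the diets was kept in all 12 fits without 1 library, and the sucrose call was lost without the first sucrose-fed library labelled MED13-LKO (-0.63, adjusted p = 0.0851). Fed mice had slightly more *Fbp1* than fasted mice (0.25 ± 0.07 over both sugars and genotypes, adjusted p = 0.0301), and leaving out any of 6 libraries ended that call. These were both fasted controls, both fructose-fed libraries labelled MED13-LKO, and the second fasted and second sucrose-fed library of that genotype, with adjusted p between 0.0509 and 0.137.

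The lower *Fbp1* and *Slc37a4* stood among many abundant genes that were lower in the libraries labelled MED13-LKO. Of the 475 genes averaging 5000 normalized counts or more, 61.3% were called lower and 5.05% higher, with a median log2 difference of -0.26. That class holds 4 of the 7 gluconeogenic genes, and of these *Fbp1* and *Slc37a4* were called lower, *G6pc* higher and *Pck1* neither. The part of the hepatocyte fraction and of the library totals in these differences was not tested. Under rescaling to equal 75th percentiles both genes kept their calls over the diets.

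**Figure D2:**
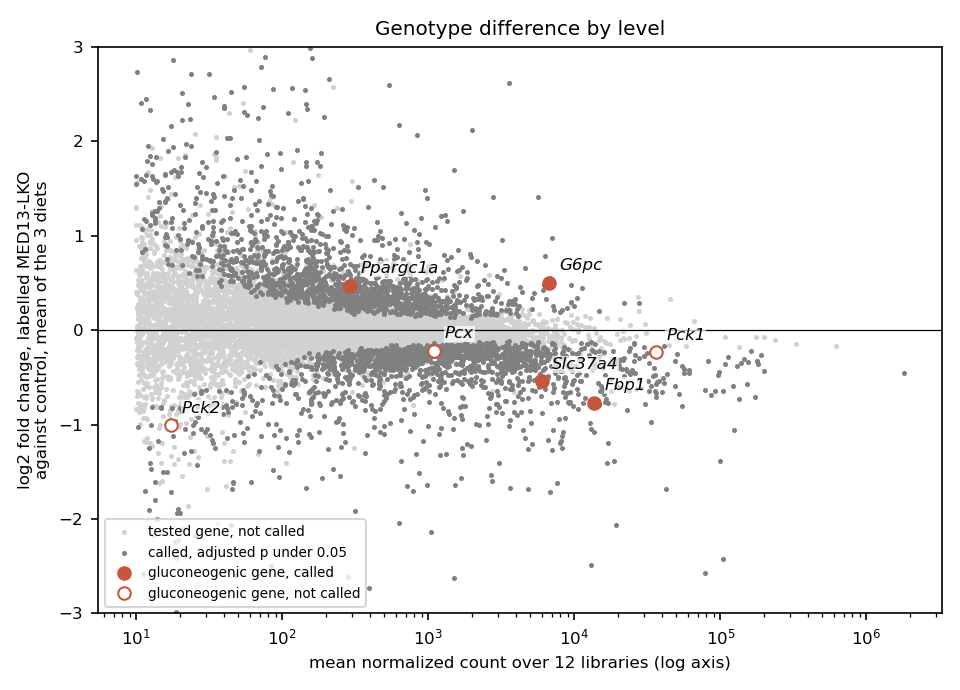
Each point is 1 of the 12366 tested genes, with its mean normalized count over 12 libraries on the x axis (log axis) and its log2 fold change between libraries labelled MED13-LKO and controls, averaged over the 3 diets, on the y axis. Red points are the 7 gluconeogenic genes, filled where called, and 55 genes beyond 3 on either side are not drawn. *G6pc* lies above 0 and *Slc37a4* and *Fbp1* below it among the abundant genes, most of which lie below 0.

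*Pck1* (ENSMUSG00000027513, chr2:173153048-173159273, plus strand, 4 transcripts) encodes the cytosolic phosphoenolpyruvate carboxykinase, a classic target of glucagon and insulin. It read 82070 and 105586 in fasted controls, 4235 and 9921 in sucrose-fed controls, and 7416 and 48079 in fructose-fed controls. Mice labelled MED13-LKO read 66545 and 66143 fasted, 11275 and 7814 on sucrose, and 15349 and 8275 on fructose. Every fed mouse lay below every fasted mouse, a separation downward of 8 against 4 that 4.79% of tested genes showed. The mean of the fed mice was 7.54% of the fasted one with sucrose and 29.6% with fructose in controls, and 14.4% and 17.8% in the libraries labelled MED13-LKO.

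The fall of *Pck1* over both sugars and genotypes was -2.88 ± 0.43 (adjusted p = 0.00158), a direction in which 11.0% of genes were called, and it was kept in all 12 fits without 1 library. For sucrose the fall was called in controls (-3.84 ± 0.71, adjusted p = 0.0105) and in libraries labelled MED13-LKO (-2.82 ± 0.71, adjusted p = 0.0485). The former call was lost without the second fasted or first sucrose-fed control mouse (adjusted p = 0.0792 and 0.0877), and the latter without any 1 of its 4 libraries (adjusted p between 0.139 and 0.244). With a pseudocount of 0.1, with no filter on low values or with equal 75th percentiles the latter was also just outside the threshold (adjusted p between 0.0514 and 0.052). For fructose neither was called (-2.30, adjusted p = 0.0909, and -2.56, adjusted p = 0.0609). Without the second fructose-fed control mouse, which read 48079, the control change was -3.65 (adjusted p = 0.00324).

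No difference of *Pck1* between genotypes was called. It was -0.49 when fasted, 0.53 with sucrose and -0.74 with fructose, and over the diets it was -0.23 with a 95% interval of -1.15 to 0.68 (adjusted p = 0.721). The fructose difference depended on which control mouse was used, since it was -2.09 and called without the first (adjusted p = 0.04) and 0.60 without the second. The interactions with genotype were 1.02 for sucrose (-1.22 to 3.26) and -0.26 for fructose (-2.49 to 1.98), intervals that leave room for differences of several fold.

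*Pck2* (ENSMUSG00000040618, chr14:55540266-55551242, plus strand, 13 transcripts), the mitochondrial counterpart of *Pck1*, had values not far above the minimum for testing. It read 17.0 and 45.8 in fasted controls, 15.0 and 29.9 in sucrose-fed controls, and 22.0 and 4.50 in fructose-fed controls. Mice labelled MED13-LKO read 3.10 and 8.35 fasted, 36.6 and 6.76 on sucrose, and 2.95 and 17.2 on fructose. Mice of one group differed by up to several fold and the ranges of the genotypes overlapped. Its largest difference was between fasted genotypes, -2.23 with a 95% interval of -4.54 to 0.078 (adjusted p = 0.21), and over the diets the difference was -1.01 (-2.34 to 0.33, adjusted p = 0.253). Differences smaller than these intervals were not detectable for *Pck2* at this level.

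*Pcx* (ENSMUSG00000024892, chr19:4510472-4621752, plus strand, 7 transcripts) encodes pyruvate carboxylase, which opens the pathway in the mitochondrion. All but 2 of the 12 libraries held it between 1004 and 1414. The exceptions were the fructose-fed libraries labelled MED13-LKO, at 900 and 600. The remaining mice of that label read 1292 and 1171 fasted and 1083 and 1139 on sucrose. Controls read 1024 and 1238 fasted, 1414 and 1117 on sucrose, and 1004 and 1246 on fructose. In the libraries labelled MED13-LKO the change with fructose from the fasted state was -0.74 ± 0.19 (adjusted p = 0.0502), just outside the threshold. A pseudocount of 10 in place of 1 brought it inside (adjusted p = 0.0473). Against control mice on fructose the difference was -0.61 (adjusted p = 0.0914), and the interaction was -0.73 (-1.34 to -0.12, unadjusted p = 0.0232, adjusted p = 0.457). These depended on which fructose-fed library labelled MED13-LKO was used. Without the second the 2 differences were -0.45 and -0.31 (adjusted p = 0.326 and 0.44), and without the first they were -1.03 and -0.90 (adjusted p = 0.0206 and 0.0337). Over the diets the genotype difference was -0.22 (adjusted p = 0.184), which became -0.12 without the second of these libraries (adjusted p = 0.402) and -0.32 and called without the first (adjusted p = 0.0432).

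*Ppargc1a* (ENSMUSG00000029167, chr5:51454250-51567726, minus strand, 5 transcripts) encodes PGC-1α, the coactivator that is raised by fasting and drives transcription of *Pck1* and *G6pc*. Fasted controls read 370 and 482, those on sucrose 190 and 154, and those on fructose 128 and 198. Mice labelled MED13-LKO read 479 and 454 fasted, 227 and 298 on sucrose, and 261 and 246 on fructose. All 8 fed mice were below all 4 fasted mice, a separation that 4.79% of tested genes showed. Among the fed mice every library labelled MED13-LKO was above every control library, a separation upward of 4 against 4 that 9.53% of tested genes showed.

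Feeding lowered *Ppargc1a* over both sugars and genotypes by 1.10 on the log2 scale (log2 fold change -1.10 ± 0.14, adjusted p = 0.000537), a call kept in all 12 fits without 1 library. Over both sugars and genotypes 11.0% of tested genes were called lower. In controls the fall was -1.30 with sucrose (adjusted p = 0.00735 from limma) and -1.40 with fructose (adjusted p = 0.00806 from limma). Of all tested genes 8.57% and 5.60% were called in these control comparisons. In the libraries labelled MED13-LKO the shares called were 5.71% with sucrose and 6.53% with fructose. Without the second fasted control mouse both calls were lost (adjusted p = 0.0718 and 0.0764), the sucrose call also without the second sucrose-fed control mouse (adjusted p = 0.0534), and in a fit of the compared groups alone the fructose call was lost (adjusted p = 0.11). In the libraries labelled MED13-LKO the falls were -0.84 (adjusted p = 0.0563) and -0.88 (adjusted p = 0.0459), and the second of these was lost without any 1 of its 4 libraries (adjusted p between 0.103 and 0.248), without the filter (adjusted p = 0.0545) and with equal 75th percentiles (adjusted p = 0.0539). The smaller falls were not shown to differ from those in controls, since the interactions were 0.46 (-0.24 to 1.16) for sucrose and 0.52 (-0.18 to 1.22) for fructose.

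Over the 3 diets *Ppargc1a* was called higher in the libraries labelled MED13-LKO (0.47 ± 0.13, adjusted p = 0.0241), as 12.1% of genes were. Within diets the difference was 0.14 when fasted, 0.60 with sucrose and 0.66 with fructose, none called (adjusted p = 0.739, 0.155 and 0.106). Without the second fructose-fed control mouse the fructose difference was 0.97 (adjusted p = 0.0267). The call over the diets was lost in 5 of 12 fits without 1 library, with adjusted p between 0.0565 and 0.0694. They were those without the first fasted or second sucrose-fed control mouse, or without the first fasted, second sucrose-fed or first fructose-fed library labelled MED13-LKO.

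**Figure D3:**
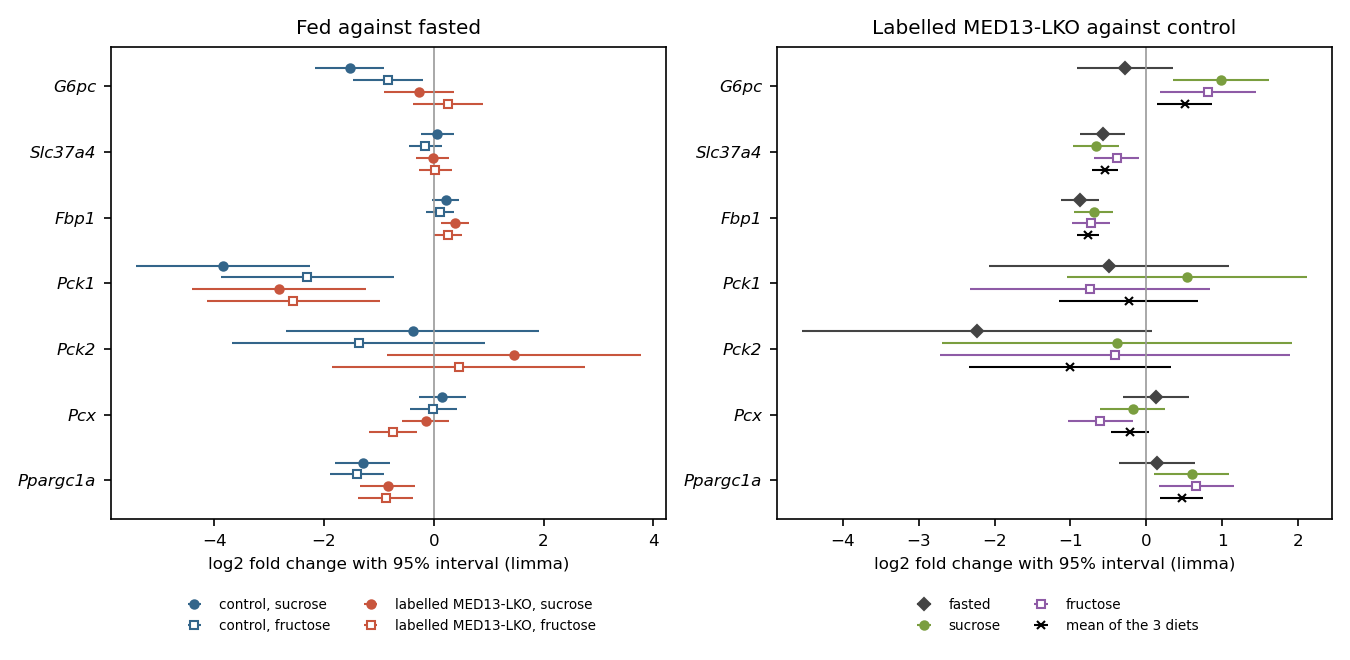
Log2 fold changes (x axes) with 95% intervals from limma for the 7 genes (y axes), of each sugar against the fasted state in each genotype (left) and of libraries labelled MED13-LKO against controls at each diet and over the 3 diets (right). Intervals of *Pck1* and *Ppargc1a* lie below 0 in all 4 feeding comparisons, those of *G6pc* lie below 0 in control mice and span 0 in the other genotype, and those of *Fbp1* and *Slc37a4* lie below 0 in all 4 genotype comparisons.

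Counted over the comparisons, 3 of the 7 genes were called with sucrose in controls (*G6pc*, *Pck1* and *Ppargc1a*), where 8.57% of all tested genes were called, and 1 with sucrose in libraries labelled MED13-LKO (*Pck1*), where 5.71% were. With fructose 1 was called in each genotype (*Ppargc1a*), against 5.60% of genes in controls and 6.53% in libraries labelled MED13-LKO, and 1 of 7 is too few to set apart from such shares. Every one of these calls was downward. Over both sugars and genotypes 4 of the 7 were called, 3 of them lower, where 21.8% of all tested genes were called, and the median of the 7 log2 fold changes was -0.19 against -0.0063 over all genes. Over the 3 diets 4 of the 7 differed between genotypes, *G6pc* and *Ppargc1a* higher and *Fbp1* and *Slc37a4* lower, where 25.3% of genes were called, with medians of -0.23 and 0.0058. With so few genes the counts describe these members and were not tested against the table.

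Fructose was also set against sucrose directly, since the refed groups differed in the sugar alone. None of the 7 genes was called in either genotype by limma, and 1 in each had an unadjusted p under 0.05. In each of these comparisons 0.0404% of genes were called, 5 in number, although 1061 and 951 had an unadjusted p under 0.05. *G6pc* was higher with fructose than with sucrose by 0.70 in controls (95% interval 0.064 to 1.33, adjusted p = 0.527) and by 0.53 in libraries labelled MED13-LKO (-0.11 to 1.16, adjusted p = 0.721). *Pck1* differed by 1.54 in controls (-0.040 to 3.13, adjusted p = 0.596), and *Pcx* by -0.60 in libraries labelled MED13-LKO (-1.03 to -0.16, adjusted p = 0.472). No member was called in either interaction of genotype and feeding, where *G6pc* had an unadjusted p under 0.05 with sucrose and *G6pc* and *Pcx* had one with fructose.

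The 2 fructose-fed control mice differed from each other in several of these genes. The second had 48079 normalized counts of *Pck1* against 7416 in the first, 7030 against 3665 of *G6pc* and 198 against 128 of *Ppargc1a*. All 12 regulators of glucose production that fell with feeding were higher in that mouse than in its partner, as were 66.4% of the 1365 genes called lower with feeding. Both sets were picked by a contrast that includes these mice. The second fasted control was likewise higher for 10 of the 12 regulators and for 65.0% of the 1365 genes. The tilt was thus not particular to the fructose-fed controls. For the sucrose-fed controls the values were 7 and 55.9%. In libraries labelled MED13-LKO they were 8 and 53.3% for the fasted pair and 6 and 51.2% for the sucrose-fed pair. In the fructose-fed pair labelled MED13-LKO the second mouse was the higher one for 3 of the 12 regulators and for 26.8% of the 1365 genes. How much each mouse had eaten was not recorded in the labels, and its part in these values was not tested.

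Of 19 regulators of the pathway's transcription, 12 were called lower and 2 higher with feeding over both sugars and genotypes, with a median log2 fold change of -0.32, where 11.0% of all tested genes were called lower and 10.7% higher. *Irs2*, which encodes an insulin receptor substrate, fell most (-2.19 ± 0.17, adjusted p = 4.8e-05), from 703 and 942 to between 92.9 and 170 in controls and from 263 and 490 to between 92.2 and 166 in the libraries labelled MED13-LKO. *Cebpb*, a fasting- and glucocorticoid-responsive factor, fell by 1.38 and *Foxo1*, the insulin-restrained activator of *G6pc*, fell by 1.35. The higher ones were *Cebpa* (0.71), a hepatocyte differentiation factor, and *Mlxipl* (0.33), which encodes the carbohydrate-responsive factor ChREBP.

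Between genotypes 1 regulator was called higher and 5 lower over the diets, with a median of -0.21, a share of called genes near the 25.3% of all tested genes (12.1% higher and 13.2% lower). *Cited2*, a CBP and p300 partner, read 278 to 433 in control libraries and 508 to 682 in libraries labelled MED13-LKO (0.74 ± 0.09, adjusted p = 0.000296). *Cebpb* differed by -0.57, *Gcgr*, the glucagon receptor gene, by -0.41 and *Klf15*, a regulator of amino acid use in the fast, by -0.38. *Foxo1* reached 457 to 579 in the fed libraries labelled MED13-LKO and 522 to 919 in the fed controls, so that these groups overlapped.

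The 7 reversible steps shared with glycolysis showed 4 genes called higher and none lower with feeding (median 0.27), in a limma test where 5 had an unadjusted p under 0.05 and where 10.7% of all genes were called higher. Among them were *Gpi1* (glucose-6-phosphate isomerase, 0.84) and *Eno1* (enolase, 0.55). Over the diets 6 of the 7 were called lower in the libraries labelled MED13-LKO and none higher (median -0.34), against 13.2% of all genes called lower and 61.3% of those averaging 5000 normalized counts or more, a class that holds most of these steps. Of these *Gapdh* differed by -0.46 and *Eno1* by -0.35. The counts of several are uncertain, since other genes hold 28.5% of the 31-base subsequences of *Eno1*, 27.2% of those of *Gapdh* and 13.9% of those of *Gpi1*.

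Of the 15 genes that bring precursors into the pathway, 5 were called lower with feeding and 3 higher (median -0.15), where 21.8% of all tested genes were called. The lower ones were led by genes of amino acid use and pyruvate sparing, *Sds* (serine dehydratase, -1.70), *Pdk4* (pyruvate dehydrogenase kinase, -1.33) and *Got1* (cytosolic aspartate aminotransferase, -1.20). The higher ones were the glycerol-3-phosphate dehydrogenase genes *Gpd2* (0.89) and *Gpd1* (0.76), and *Ldha* (lactate dehydrogenase, 0.28), of whose 31-base subsequences other genes hold 19.6%. Between genotypes 4 were called lower and 1 higher (median -0.043), close to the 25.3% of all genes called. These included *Got1* at -0.78, the glycerol channel gene *Aqp9* at -0.49, *Gpd2* at -0.47 and *Ldha* at 0.34. *Got1* read 8213 and 7263 in fasted controls and 2198 and 2610 in fasted libraries labelled MED13-LKO, close to the 1435 to 2716 of the fed controls.

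**Figure D4:**
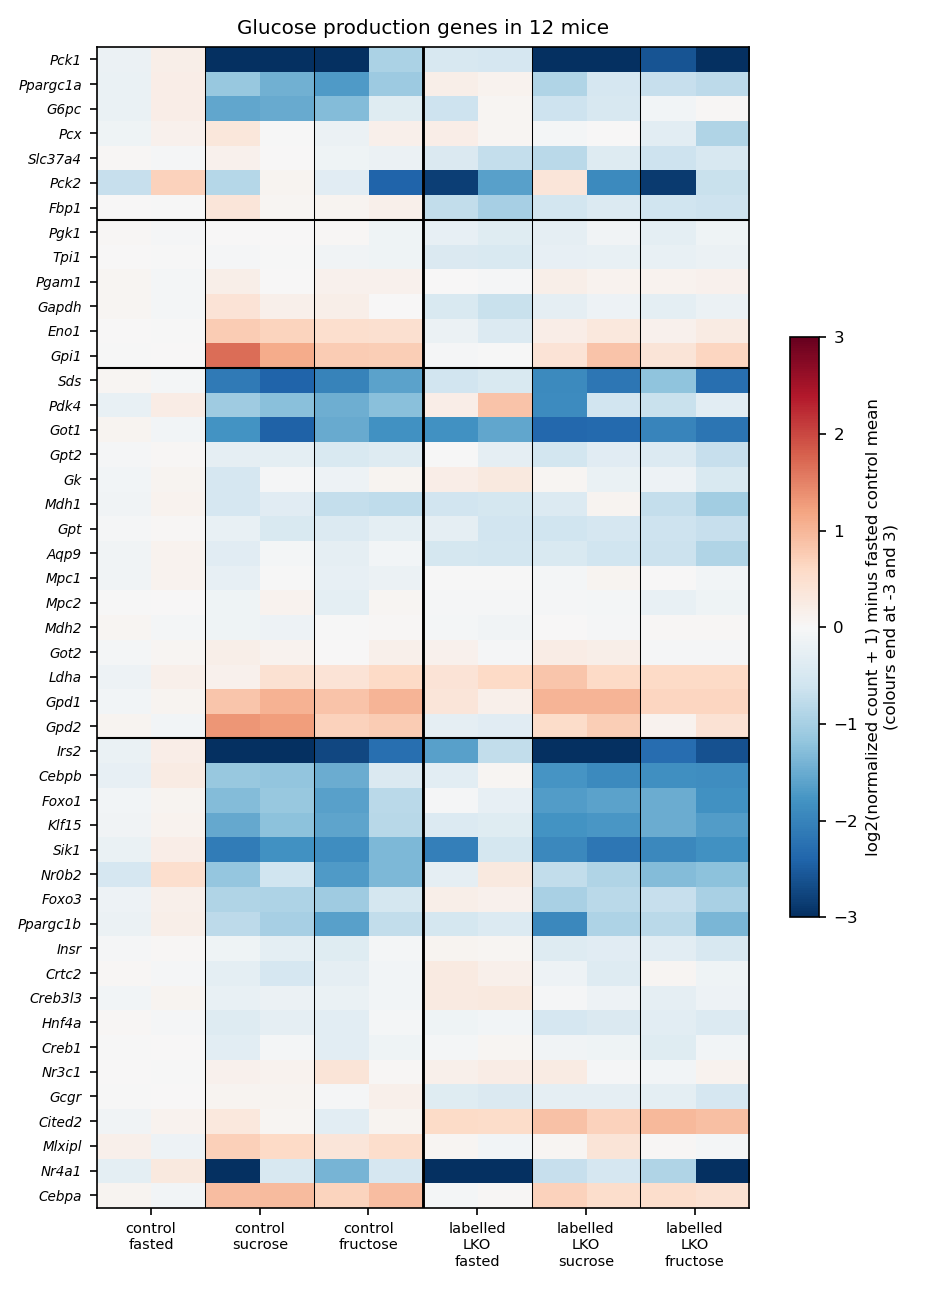
Each row is 1 of 47 genes and each column 1 of 12 mice, and colour gives log2(normalized count + 1) minus the mean of the fasted controls, ending at -3 and 3. Blocks from top to bottom hold the 7 gluconeogenic genes, 6 of the 7 reversible steps, precursor entry and the regulators, sorted within a block by the change with feeding. The rows of *Pck1*, *Irs2*, *Sds* and *Foxo1* turn blue in the fed columns of both genotypes, while that of *G6pc* is bluest in both sucrose-fed and the first fructose-fed control column.

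The genes whose profiles over the 12 libraries were most like those of *G6pc* and *Pck1* were sought among 8852 candidates that averaged 100 normalized counts or more, by the root-mean-square difference of log2 values centred on each gene's mean. For *G6pc* the nearest was *Rnd1* at 0.30, then *Tmc6* (0.34), *Cyp39a1* (0.34), *Sgk1* (0.35) and *Odf2* (0.35), against a median of 0.63 over all candidates. *Rnd1* read 211 and 298 in fasted controls, 61.5 to 135 in fed controls, 239 and 266 in fasted libraries labelled MED13-LKO, and 142 to 194 in the fed ones. *Ppargc1a* was the nearest of the gluconeogenic genes to *G6pc*, at 0.45. For *Pck1* the nearest was *Zbtb16* at 0.38, and *Angptl4* (0.47), *Trp53inp1* (0.71) and *Irs2* (0.74) were also near, against a median of 1.58. *Zbtb16* fell from 1013 and 1202 to 76 and 130 with sucrose in controls, and its fructose-fed controls were split like those of *Pck1*, at 72.5 and 385. All libraries enter each of these distances, so likeness reflects both the groups and the single mice.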

How the data were processed

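Liver RNA from 12 mice was sequenced, 2 in each of 6 groups given by the sample titles. The deposited signal values are the authors' normalized counts of 16346 genes. Per the labels and the submitters' processing notes, reads were trimmed with Trim Galore 0.6.5, transcript counts were estimated with kallisto 0.46.0 on mm10, and DESeq2 1.24.0 was used downstream. The transcript annotation and the step from transcripts to genes are not given in the sources used here.

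From these values log2(normalized count + 1) was computed where the mean reached 10. All 12 libraries entered a single fit of 6 group means in limma 3.58.1 (R 4.3.3), with a mean-dependent prior for the variances. Benjamini-Hochberg adjustment ran over the 12366 genes tested, and an adjusted p under 0.05 is a call. In single-transcript genes 87.3% to 99.0% of low values were whole multiples (tolerance 0.05) of a step per library, but over all genes 53.4% to 58.9% were, so whole reads were not recovered and no count test was run. The fit was tested on simulated data. The labels do not say whether the mice were littermates. In the main fit each p-value rests on a variance between mice that is pooled over the 6 groups and moderated by that prior. It therefore does not reflect the spread of the compared mice alone. The fed mice were killed later in the day than the fasted mice, and all of them had chow as well as sugar, so hour, chow and sugar cannot be told apart in the feeding comparisons.

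Positions and shared subsequences of 31 bases come from GENCODE M21 on GRCm38, in which 16212 identifiers had a symbol, and promoters from RefSeq (GRCm38.p6). The members and the gene lists were chosen with earlier results of these data known. Every member is given in every library. From the other lists the text names, for feeding and for genotype averaged, at most 3 called genes a direction in order of size, with the genotype values of *Foxo1*, the fasted values of *Got1* and the paralogues of *G6pc* added after the values were seen. Alternatives were pseudocounts of 0.1 and 10, no filter, a replicate block, equal 75th percentiles, the compared groups alone, and leaving out each library. Python 3.11.15, pandas 2.3.3, NumPy 2.4.6 and matplotlib 3.10.9 were used. A few genes of the lists enter the counts and are not reported here by name. Chow-only mice and qRT-PCR were not analysed here.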

Additional observations from a re-analysis of the deposited data

How the results depend on the processing

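With 2 mice a group, leaving out a library leaves 1 mouse in its group, which is then assumed to vary like the other groups. The number of the 7 genes called then ranged from 0 to 3 for sucrose in controls, 0 for sucrose and 0 to 1 for fructose in libraries labelled MED13-LKO (1 each with all libraries), 0 to 3 for fructose in controls, 2 to 4 for feeding averaged, 1 to 2, 0 to 2 and 1 to 3 for genotype when fasted, with sucrose and with fructose, and 2 to 4 for genotype averaged. The count for sucrose in libraries labelled MED13-LKO became 0 with a pseudocount of 0.1, no filter, equal 75th percentiles or the replicate block, and 2 in the compared groups alone. That for fructose became 0 with no filter, equal 75th percentiles or the block, and 2 with a pseudocount of 10 or in the compared groups alone. For fructose in controls it was 2 with the block and 0 in the compared groups alone, and for genotype on fructose 2 with the block. The cause of these shifts was not tested.

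Of 323 values of single genes recomputed under the settings other than leaving out a library, 306 kept their direction and side of the threshold, 9 lost the call, 7 gained it and 1 turned, *Slc37a4* with feeding averaged at 0.0049 under equal 75th percentiles. The averaged call of *G6pc* between genotypes was lost without a filter (adjusted p = 0.0526, range 0.013 to 0.0526 over these settings, from limma). Leaving out a library turned the sign of 8 comparisons with *G6pc*, *Pck1* or *Ppargc1a* and 1 with *Slc37a4*, all uncalled. *G6pc* then ranged from -0.62 to 0.058 between fasted genotypes, and in libraries labelled MED13-LKO from -0.61 to 0.072 with sucrose and -0.080 to 0.60 with fructose. *Pck1* ranged between genotypes from -0.080 to 1.15 with sucrose, -2.09 to 0.60 with fructose and -0.68 to 0.22 averaged, and from -1.60 to 1.09 for the fructose interaction. *Ppargc1a* ranged from -0.047 to 0.33 between fasted genotypes and *Slc37a4* from -0.091 to 0.049 with feeding averaged.

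Mice with the same replicate number in the sample titles did not deviate together. Over 15 pairs of groups the correlation of their deviations lay between -0.142 and 0.0782, and none was over 0.1. The column labels of the fed mice carry other numbers than their titles, while those of the fasted mice carry the same. A pairing of fed with fasted mice by the column labels was not tested. With the replicate number as a block 832 genes were called between genotypes on fructose, against 951 without it, and 919 with the numbers of one fructose group crossed, a pairing added after seeing the data. The block brought inside the threshold the *G6pc* differences between genotypes with sucrose and fructose (adjusted p = 0.0265 and 0.0441 from limma) and the *G6pc* change with fructose in controls (adjusted p = 0.0498).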

Other observations

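The glycolytic steps that oppose gluconeogenesis were measured beside it, as a list of 5 genes. With feeding averaged over both sugars and genotypes, *Pklr*, the liver pyruvate kinase gene, rose by 1.91 ± 0.15 on the log2 scale (adjusted p = 5.1e-05 from limma) and *Pfkfb1*, which makes and breaks down fructose-2,6-bisphosphate, fell by 0.37, with a list median of 0.052. *Pklr* read 2516 and 2675 in fasted controls, 18792 and 14368 with sucrose, and 7397 and 8376 with fructose. The libraries labelled MED13-LKO read 2695 and 1502, 7582 and 10864, and 4558 and 4808 at the same diets. Between genotypes none of the 5 genes was called with sucrose and 1 was called lower with fructose. In those comparisons 6.03% and 7.69% of all tested genes were called. Averaged over the diets, *Pklr* (-0.66) and *Pfkfb1* (-0.39) were called lower and *Pfkl* (0.40) higher in the libraries labelled MED13-LKO, where 13.2% of genes were called lower and 12.1% higher. *Slc2a2*, which encodes the hepatic glucose transporter GLUT2, read 9222 to 13950 in the 6 control libraries and 2868 to 7143 in the 6 libraries labelled MED13-LKO, without overlap (-1.19 ± 0.13, adjusted p = 0.000156). Such a separation downward was shown by 4.93% of tested genes. *Slc2a2* averaged 7978 normalized counts, and of the genes averaging 5000 or more 61.3% were called lower. The glucose-6-phosphatase paralogue *G6pc3* read 42.8 to 82.5 over all libraries and *G6pc2* at most 3.4.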
